A study of Mus musculus with 4 samples.

Results

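Histone lysine methyltransferases and demethylases were examined on expression arrays of E14, a line of mouse embryonic stem (mES) cells, after RNAi against the zinc finger gene Zfp322a. The set held 48 listed genes: 25 methyltransferases (writers), 18 demethylases (erasers) and 5 core subunits of the complexes that methylate lysine 4 of histone H3 (H3K4). Members were found by the single gene symbol that the platform annotation gives a probe set, or by its synonym. 46 of the 48 were found, among 18193 genes in all: 23 writers, 18 erasers and 5 subunits. Suv39h1, an H3K9 methyltransferase, and Ash1l, an H3K36 methyltransferase, were not found under such a symbol and were not analysed here. Whsc1, Whsc1l1, Setd8, Suv420h1 and Suv420h2 are now named Nsd2, Nsd3, Kmt5a, Kmt5b and Kmt5c.

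The series held 4 arrays, 2 of E14 cells with the empty pSuper.puro vector (control RNAi) and 2 of cells with an shRNA plasmid against Zfp322a (Zfp322a RNAi). Both groups were grown in serum with LIF, transfected with Lipofectamine and kept under puromycin for 3 days (the labels' value), so that each sample is a selected pool and not a clone. The study asked which genes respond when Zfp322a is lowered, and chromatin remodelling was among the functions it examined. It designed 2 shRNAs, whose 19-base sense stems are shown because they define the perturbation; the sources used here do not say which of them the arrays hold.
shRNA-1: ACAGAGGAGCTCCATTATA
shRNA-2: ACTTAGCACGAATGTGTGA

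Lysine methylation marks active and silent chromatin. Methyltransferases add methyl groups to single lysines, mostly through a SET domain, and demethylases remove them, either with flavin (Kdm1a and Kdm1b) or with an iron and 2-oxoglutarate dependent JmjC domain (the other erasers). H3K4 methylation marks promoters and enhancers in use, H3K36 and H3K79 methylation marks transcribed gene bodies, and H3K9, H3K27 and H4K20 methylation marks silent or compact chromatin. In mES cells these enzymes hold the balance between pluripotency genes in use and developmental genes kept silent.

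All values are log2 levels from RMA, the method by which the authors corrected, normalised and summarised the arrays, and each gene is given by its brightest probe set. A change is the mean of the Zfp322a RNAi arrays minus that of the control RNAi arrays on the log2 scale, with its standard error from limma, and "rose" or "fell" means an adjusted p under 0.05. There were 2 arrays in each group, and this number limits the precision. Separate cultures are not stated in the labels, so that spread between samples, and with it each p-value, may be technical only. The targeted gene Zfp322a went from 8.75 and 8.84 under control RNAi to 7.53 and 7.13 under Zfp322a RNAi, which left 36.2% of the control level (-1.47 ± 0.14, adjusted p = 0.00158 with limma). Another Zfp322a probe set left 27.4%. The 12 mES cell markers lay above the median of all genes in level, and their summed linear level went from 69176 and 67695 to 62582 and 62989. Of these markers Utf1 (-0.65), Tdgf1 (-0.59), Esrrb (-0.41) and Lin28a (-0.31) fell and Sall4 (0.29) rose, while Pou5f1 (-0.05), Nanog (-0.02), Sox2 (0.01) and Zfp42 (0.06) were among the 7 that did not pass the test. The paper itself reports lower mRNA of Pou5f1, Nanog, Sox2 and Zfp42 by PCR after Zfp322a RNAi. The 12 fibroblast and feeder markers all lay below that median, and 1 of them rose, 3 fell and 8 did not pass. Their summed linear level went from 695 and 686 under control RNAi to 555 and 558 under Zfp322a RNAi, with Pdgfrb (-0.87) past both the adjusted p and 1.5-fold. Of 12 endoderm markers 8 rose and 1 fell, while over all genes 14% rose and 14.4% fell. In level, 9 of these 12 lay below the median of all genes. The summed linear level of the endoderm markers went from 1167 and 1256 to 1580 and 1564, with Foxa1 (1.79), Gata6 (1.42), Pdgfra (0.73) and Sox7 (0.70) past both. The part of these cells in the results below was not tested, and in a bulk sample fewer cells of a type and less RNA per cell cannot be told apart.

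Upon Zfp322a depletion, 14 of the 46 members rose (30.4%) and 8 fell (17.4%), which left 24 not called. Over all 18193 genes 14% rose and 14.4% fell. The members that rose most were the demethylase genes Kdm6a, Kdm4c and Kdm3a, each about doubled, and the one that fell most was the methyltransferase gene Suv420h2. The median change was 0.06 over the members and -0.04 over all genes. With the 1.5-fold rule of the study added to the adjusted p, 7 members rose and 1 fell, against 5.03% and 3.18% of all genes. For 39 members (84.8%) the arrays of one group lay wholly above those of the other, among them all 22 that passed, against 62.6% of all genes. The calls came from the same arrays, so that such a lack of overlap, here and below, adds no support to a called member. The lowest control level was 7.52 among writers and 8.25 among core subunits, while array medians over all probe sets were 6.07 to 6.11. Members and all genes were not matched in level, so that these shares may differ for that alone. When any 1 of the 4 arrays was left out, 0 of all 18193 genes passed the adjusted p with limma, Zfp322a included, so that these fits say nothing about the stability of the members' calls. At an unadjusted p under 0.05 they held 5147 to 5769 genes, among them 22 to 25 members.

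**Figure D1:**
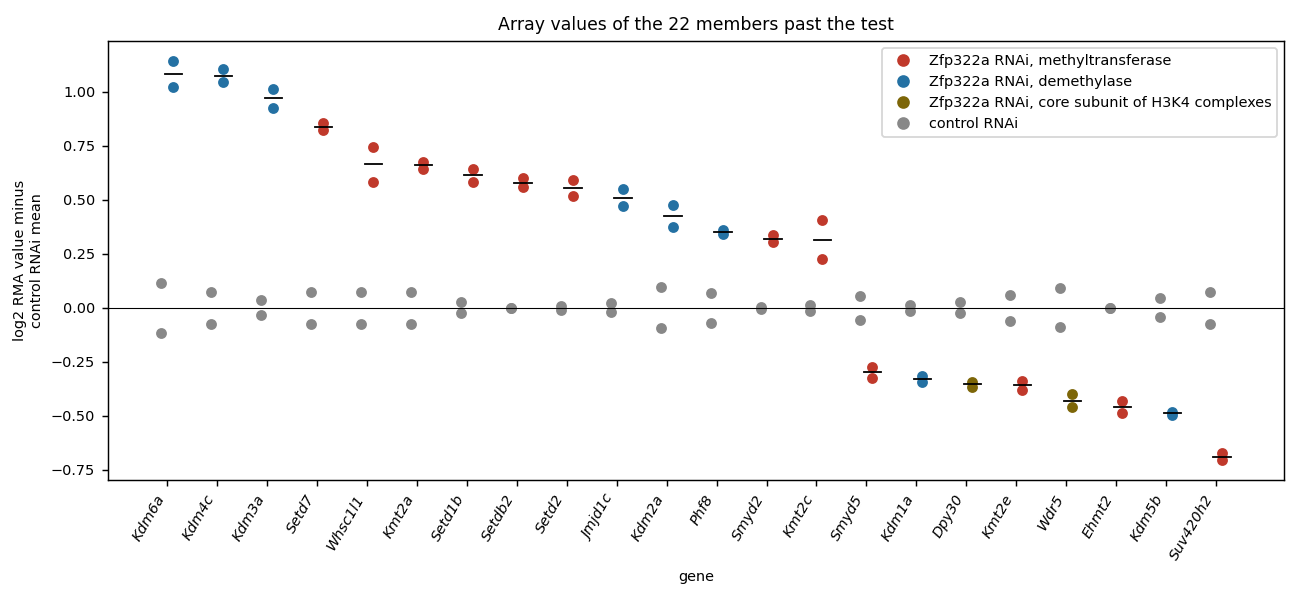
Log2 RMA values by array, each less the control RNAi mean (y axis), for the 22 members that passed the test (x axis); grey marks control RNAi arrays, colour Zfp322a RNAi arrays, and short lines the Zfp322a RNAi means. The groups do not overlap for any of the 22, from Kdm6a at 1.09 to Suv420h2 at -0.69.

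Writers and erasers each held more rises than falls. Of the 23 writers 8 rose, 4 fell and 11 did not pass, with a median change of 0.05. Of the 18 erasers 6 rose, 2 fell and 10 did not pass, with a median change of 0.09. The share that rose was 34.8% of writers and 33.3% of erasers, beside 14% of all genes. The share that fell was 17.4% and 11.1%, beside 14.4% of all genes. The same shares of all genes stand beside the counts by residue below. The difference between writers and erasers was not tested. Among the 16 JmjC erasers 6 rose and 1 fell, whereas of the flavin-dependent pair Kdm1a fell and Kdm1b (-0.38 ± 0.14, adjusted p = 0.0992 with limma) did not pass. Of the 5 core subunits 2 fell, 3 did not pass and 0 rose with limma (1 was higher at an unadjusted p under 0.05), with a median change of -0.25, and their difference from writers and erasers was not tested.

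**Figure D2:**
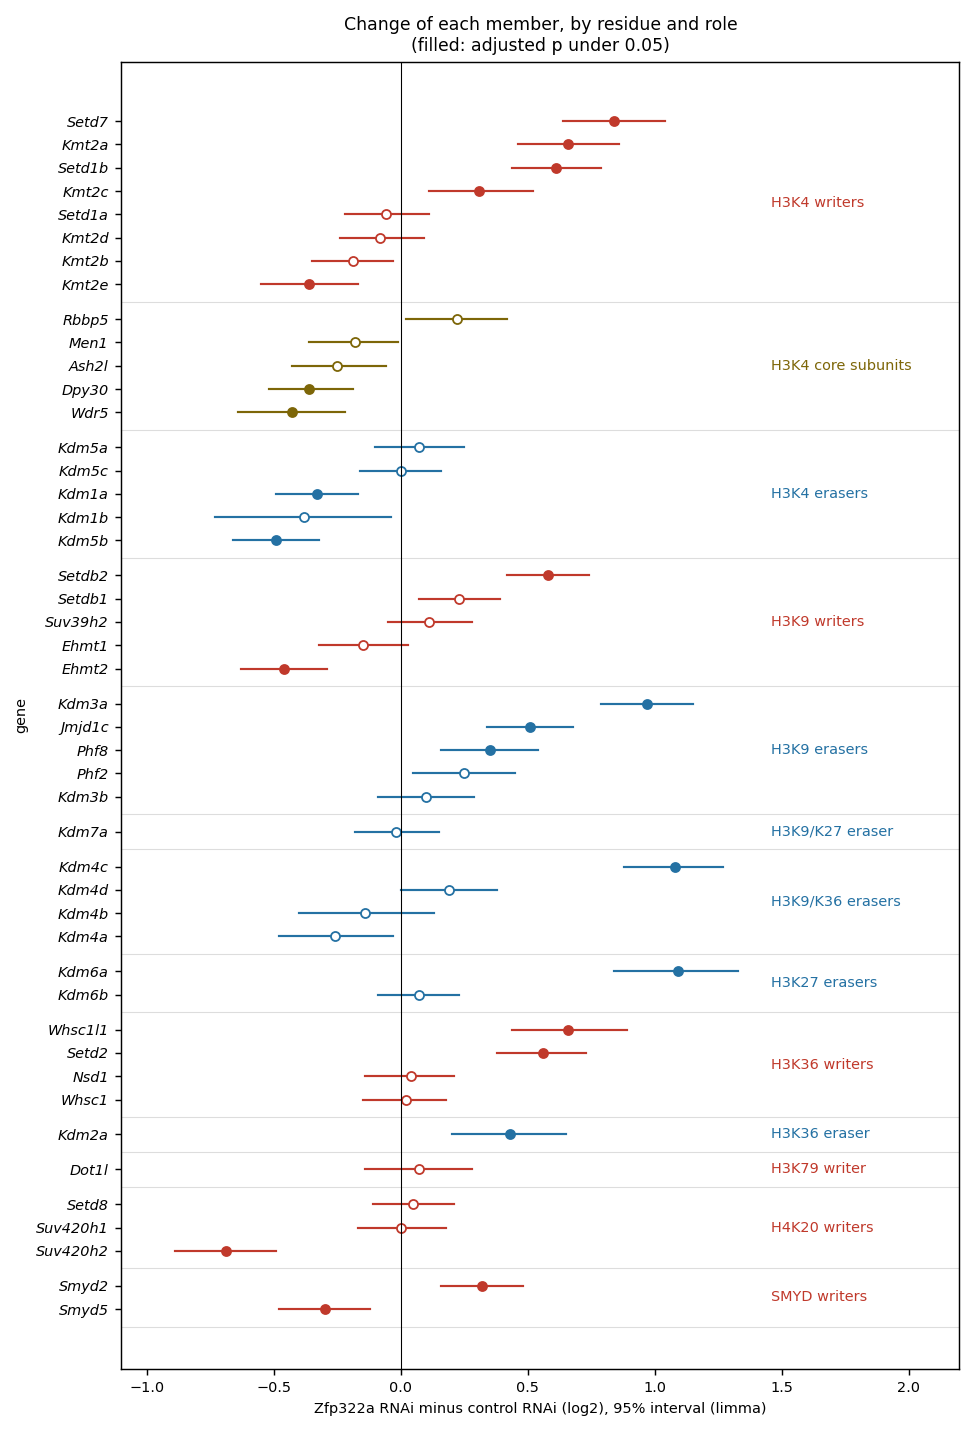
Change of each of the 46 members (x axis, log2, Zfp322a RNAi minus control RNAi) with its 95% interval from limma, grouped by the residue and the role of the product; red marks writers, blue erasers and brown core subunits, and filled points passed an adjusted p of 0.05. Each member is given by its brightest probe set alone. H3K4 erasers and core subunits that passed lie left of 0, and H3K9, H3K27 and H3K36 erasers that passed lie right of 0.

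For H3K4, the methyltransferase genes went both ways. On their brightest probe sets, 4 of 8 writers rose, 1 fell and 3 did not pass. Averaged over all their probe sets, the called writers Kmt2a (0.22), Kmt2c (-0.09) and Kmt2e (-0.09) did not pass, as given below. The largest rise was that of Setd7, which adds a single methyl group to H3K4 and also modifies other proteins. Setd7 gave 7.44 and 7.59 under control RNAi against 8.37 and 8.34 under Zfp322a RNAi (0.84 ± 0.08, 1.79-fold, adjusted p = 0.00163 with limma). Kmt2a, the mammalian trithorax gene first known as Mll, went from 8.47 and 8.62 to 9.22 and 9.19 (0.66 ± 0.08, 1.58-fold, adjusted p = 0.00304 with limma). Setd1b, the catalytic subunit of one of the complexes that carry most H3K4 trimethylation, went from 7.49 and 7.54 to 8.16 and 8.10 (0.61 ± 0.07, 1.53-fold, adjusted p = 0.00257 with limma). In all 3 genes both knock-down arrays lay above both control arrays. Averaged with a dim probe set, the change of Setd7 was 0.35, which passed.

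The other H3K4 writers moved less. Kmt2c, which methylates enhancers, gave 9.20 and 9.23 under control RNAi against 9.62 and 9.44 under Zfp322a RNAi (0.31 ± 0.08, adjusted p = 0.0392 with limma), a call that ended with adjustment over all probe sets (adjusted p = 0.0593) and with quantile normalisation (adjusted p = 0.0509 with limma), and its probe sets disagreed, as given below. Kmt2e, a relative with no well-established methyltransferase activity, went from 8.30 and 8.42 to 8.02 and 7.98 (-0.36 ± 0.08, adjusted p = 0.0177 with limma). This direction rests on a tie, since an equally bright Kmt2e probe set rose, as given below, and averaged over all probe sets Kmt2e did not pass (-0.09, adjusted p = 0.366 with limma). Among close relatives of the genes that rose, Setd1a (-0.06, 95% interval -0.22 to 0.11), Kmt2d (-0.08, -0.24 to 0.09) and Kmt2b (-0.19, -0.35 to -0.03) did not pass the test. Whether the changes of such relatives differ was not tested.

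The H3K4 complexes share core subunits that position and stimulate the catalytic subunit. Wdr5, which bridges the enzyme and its partners, gave 11.43 and 11.61 under control RNAi against 11.06 and 11.12 under Zfp322a RNAi (-0.43 ± 0.09, control over knock-down 1.35-fold, adjusted p = 0.0151 with limma). Dpy30, which binds Ash2l, went from 12.71 and 12.66 to 12.32 and 12.34 (-0.36 ± 0.07, 1.28-fold, adjusted p = 0.0129 with limma). Both genes were lower on each knock-down array than on either control array. Ash2l (-0.25 ± 0.07, adjusted p = 0.0575 with limma) and Men1, which serves the Kmt2a and Kmt2b complexes (-0.18 ± 0.07, adjusted p = 0.104 with limma), lay lower without passing. Rbbp5 lay higher without passing (0.22 ± 0.08, adjusted p = 0.0932 with limma). With dim genes left out or with a variance trend, Rbbp5 passed as higher and Ash2l as lower.

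On their brightest probe sets, the H3K4 demethylase genes that passed the test fell. Kdm5b, which removes H3K4 trimethylation and is abundant in mES cells, gave 12.05 and 12.14 under control RNAi against 11.60 and 11.61 under Zfp322a RNAi (-0.49 ± 0.07, 1.40-fold lower, adjusted p = 0.00522 with limma). Kdm1a, the first histone demethylase described, went from 12.02 and 12.05 to 11.69 and 11.72 (-0.33 ± 0.07, adjusted p = 0.0159 with limma). Both were lower on each knock-down array. Their further probe sets repeated the direction: all 4 of Kdm5b fell, by 0.34 to 0.61 on the log2 scale, and both of Kdm1a did. Kdm5a (0.07 ± 0.07) and the X-linked Kdm5c (0.00 ± 0.07) did not pass on their brightest probe sets. On these probe sets, 2 of 5 H3K4 erasers fell and 0 rose with limma (0 were higher at an unadjusted p under 0.05). A dimmer Kdm5a probe set rose and a dimmer Kdm5c probe set fell, as given below. Averaged over all its probe sets, Kdm5a passed as higher (0.28, adjusted p = 0.0432 with limma).

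For H3K9, the demethylase genes that passed the test rose. Of the 10 erasers that act on H3K9, some of them on a second residue as well, 4 rose and 0 fell with limma (1 was lower at an unadjusted p under 0.05), with a median change of 0.22. Kdm4c, which removes trimethylation from H3K9 and H3K36, gave 7.83 and 7.68 under control RNAi against 8.86 and 8.80 under Zfp322a RNAi (1.08 ± 0.08, 2.11-fold, adjusted p = 0.00112 with limma). Kdm3a, which removes mono- and dimethylation from H3K9 and is known to be induced by hypoxia, went from 10.78 and 10.85 to 11.74 and 11.83 (0.97 ± 0.07, 1.96-fold, adjusted p = 0.00112 with limma). For both genes the control and knock-down arrays were about 1 log2 unit apart. Both have long been known as targets of Oct4 in mES cells, and Pou5f1, which encodes Oct4, did not pass the test here (-0.05). That is an array RNA value, whereas the paper reports lower Pou5f1 mRNA by PCR and less Oct4 protein after Zfp322a RNAi. The part of Oct4 in their changes was not tested. Each is measured by 1 probe set.

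Among the remaining H3K9 erasers the Kdm3a relative Jmjd1c rose from 10.76 and 10.72 to 11.29 and 11.21 (0.51 ± 0.07, 1.42-fold, adjusted p = 0.00460 with limma). The X-linked Phf8 rose from 8.35 and 8.49 to 8.78 and 8.76 (0.35 ± 0.08, adjusted p = 0.0213 with limma). In both genes the knock-down arrays lay above the control arrays, but averaged over all probe sets neither passed (0.11 and -0.05). Kdm3b (0.10 ± 0.08), Phf2 (0.25 ± 0.08), Kdm4a (-0.26 ± 0.09), Kdm4b (-0.14 ± 0.11), Kdm4d (0.19 ± 0.08) and Kdm7a (-0.02 ± 0.07) did not pass the test. Kdm4d had the lowest control level of the members, 4.47, so that little can be read from its value.

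H3K9 writers split. Setdb2 gave 7.72 on both control arrays against 8.32 and 8.28 under Zfp322a RNAi (0.58 ± 0.07, 1.49-fold, adjusted p = 0.00268 with limma). Ehmt2, also called G9a and the main enzyme of H3K9 dimethylation together with Ehmt1, gave 8.84 on both control arrays against 8.41 and 8.35 under Zfp322a RNAi (-0.46 ± 0.07, 1.38-fold lower, adjusted p = 0.00560 with limma). The arrays of the groups lay apart in both genes, in opposite directions. Ehmt1 (-0.15 ± 0.07, adjusted p = 0.192 with limma), Suv39h2 (0.11 ± 0.07, adjusted p = 0.273 with limma) and Setdb1, which silences endogenous retroviruses in mES cells (0.23 ± 0.07, adjusted p = 0.0506 with limma), did not pass. Setdb1 passed with array centring (0.26, adjusted p = 0.0379 with limma).

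The H3K27 demethylase Kdm6a, also called Utx, showed the largest change of the set. It gave 9.55 and 9.32 under control RNAi against 10.58 and 10.46 under Zfp322a RNAi (1.09 ± 0.10, 2.12-fold, adjusted p = 0.00156 with limma). A probe set 0.39 log2 units dimmer went from 9.34 and 9.45 to 9.77 and 9.80 and rose less, 1.31-fold. On both probe sets each knock-down array lay above each control array, and 2 dim probe sets did not pass. The average of the 4 was 0.32, which passed (adjusted p = 0.0242 with limma). Its relative Kdm6b, also called Jmjd3, did not pass (0.07 ± 0.07, 95% interval -0.09 to 0.23). Uty, the Y-linked relative of Kdm6a and not a listed member, went from 6.40 and 6.32 to 7.12 and 6.94 (0.67 ± 0.09, adjusted p = 0.00378 with limma). That value is from the brightest of its 4 probe sets.

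For H3K36, every member that passed rose. Of the 5 erasers that act on H3K36, 2 rose and 3 did not pass (1 was lower at an unadjusted p under 0.05). Of these 5, 4 also act on H3K9 and are given above. Whsc1l1, a writer of H3K36 dimethylation, went from 7.44 and 7.59 on the control arrays to 8.26 and 8.10 on the knock-down arrays (0.66 ± 0.09, 1.59-fold, adjusted p = 0.00453 with limma). Setd2, the enzyme of H3K36 trimethylation, went from 8.87 and 8.89 to 9.47 and 9.40 (0.56 ± 0.07, 1.47-fold, adjusted p = 0.00336 with limma). Kdm2a, which removes H3K36 methylation at CpG islands, went from 8.04 and 8.23 to 8.61 and 8.51 (0.43 ± 0.09, adjusted p = 0.0188 with limma). The groups did not overlap in any of these 3 genes, and averaged over all its probe sets Kdm2a did not pass (0.00). For Whsc1l1 4 of 6 probe sets did not pass, and their average of 0.30 passed (adjusted p = 0.0201 with limma). Nsd1 (0.04 ± 0.07) and Whsc1 (0.02 ± 0.07) did not pass the test, and their arrays overlapped.

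Among the members for other residues, Suv420h2 stood lowest. This writer of H4K20 di- and trimethylation gave 9.35 and 9.50 under control RNAi against 8.72 and 8.75 under Zfp322a RNAi (-0.69 ± 0.08, 1.61-fold lower, adjusted p = 0.00268 with limma), and it was the single member to fall by over 1.5-fold. The writer of H4K20 monomethylation Setd8 (0.05 ± 0.07) and the Suv420h2 relative Suv420h1 (0.00 ± 0.07) did not pass on their brightest probe sets. Dot1l, the H3K79 methyltransferase, did not pass either (0.07 ± 0.08). In the SMYD family, Smyd2 went from 9.0 and 8.99 to 9.33 and 9.30 (0.32 ± 0.07, adjusted p = 0.0172 with limma) and Smyd5 from 9.23 and 9.34 to 9.01 and 8.96 (-0.30 ± 0.07, adjusted p = 0.0308 with limma). The call of Smyd5 ended with adjustment over all probe sets (adjusted p = 0.0504 with limma) and with their average (-0.12).

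The 46 members were covered by 131 probe sets, and 33 members had more than 1. When limma was fitted over all 45037 probe sets, 22 of the 131 rose (16.8%) and 18 fell (13.7%), against 10.6% and 9.47% of all probe sets. For 5 members, Kmt2c, Kmt2e, Phf8, Kdm7a and Kdm2a, at least 1 probe set rose and at least 1 fell. All 5 are among the 21 members with over 2 probe sets, of which they make up 23.8%, while 4.15% of the 4315 genes with over 2 probe sets showed this. Members and other genes were not matched in number of probe sets or in brightness for that count.

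Kmt2c held the widest split. One probe set went from 8.90 and 8.99 on the control arrays to 9.66 and 9.60 on the knock-down arrays (0.68 ± 0.08, adjusted p = 0.00368 with limma). A further one went from 8.28 and 8.40 to 7.29 and 7.26 (-1.06 ± 0.08, adjusted p = 0.00150 with limma). The knock-down arrays thus lay apart from the control arrays in opposite directions within 1 gene, so that no single direction can be given for Kmt2c, and averaging its probe sets gave -0.09. Kmt2e likewise had a probe set that went from 7.93 and 7.87 to 8.49 and 8.41 (0.55 ± 0.08, adjusted p = 0.00677 with limma) beside the fall of the equally bright one used for the count. Kmt2a, whose brightest probe set rose, had one 0.57 log2 units dimmer at -0.22 that did not pass, and their average, 0.22, did not pass either (adjusted p = 0.0854 with limma). Kdm2a had a probe set as bright as the one used, to within 0.01, at -0.03.

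In other members a change appeared outside the brightest probe set. For Kdm5a, 1 of 6 probe sets went from 8.99 and 9.0 on the control arrays to 10.48 and 10.29 on the knock-down arrays (1.39 ± 0.09, 2.62-fold, adjusted p = 0.00118 with limma), which was larger than the change of any brightest probe set of a member. The 2 brighter Kdm5a probe sets did not pass (0.07 and -0.03). Suv420h1 had 2 of 5 probe sets that rose, one from 6.52 and 6.83 to 7.72 and 7.70 (1.03 ± 0.12) and the other from 7.15 and 7.46 to 8.03 and 7.83 (0.62 ± 0.13). Averaged over all their probe sets, Kdm5a (0.28, adjusted p = 0.0432 with limma) and Suv420h1 (0.33, adjusted p = 0.0200 with limma) passed as higher. Kdm5c had 1 of 9 probe sets that fell, from 7.11 and 7.33 to 6.42 on both knock-down arrays (-0.80 ± 0.10). Agreement was closest for Setd1b, Kdm1a and Kdm5b, in which every probe set passed in the same direction.

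**Figure D3:**
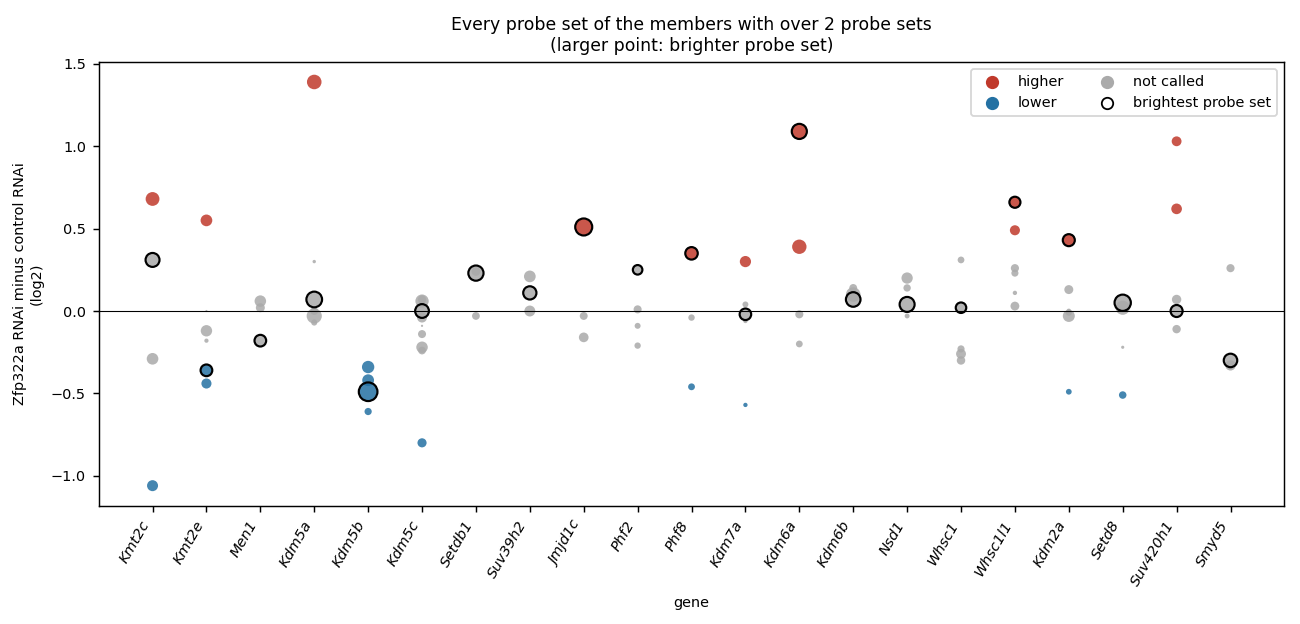
Change (y axis, log2, Zfp322a RNAi minus control RNAi) of every probe set of the 21 members with over 2 probe sets (x axis); larger points are brighter probe sets, an outline marks the brightest one, red rose, blue fell and grey did not pass. All 4 probe sets of Kdm5b lie below 0, while those of Kmt2c run from -1.06 to 0.68 and those of Kdm5a from -0.07 to 1.39.

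Gene length differed in median between the members that rose and those that fell. The median gene length, from start to end in GRCm38.p6 with introns, was 84.4 kb for the 14 that rose, 22.9 kb for the 8 that fell and 42.2 kb for the 24 that did not pass. Over all genes it was 30.9 kb, 18.7 kb and 18.6 kb. Spearman's rho of length with change was 0.45 across the 46 members and 0.10 across 18142 genes, given as a description since these values share the same 4 arrays. Kdm4c, at 163 kb, and Kdm6a, at 119 kb, lay at the long end, and Suv420h2, at 7.42 kb, and Ehmt2, at 15.6 kb, at the short end. Kdm5b, at 72.7 kb, fell and Setd1b, at 26.6 kb, rose, while Ehmt1, at 129 kb (-0.15), and Nsd1, at 109 kb (0.04), did not pass the test. The part of length in the changes was not tested.

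**Figure D4:**
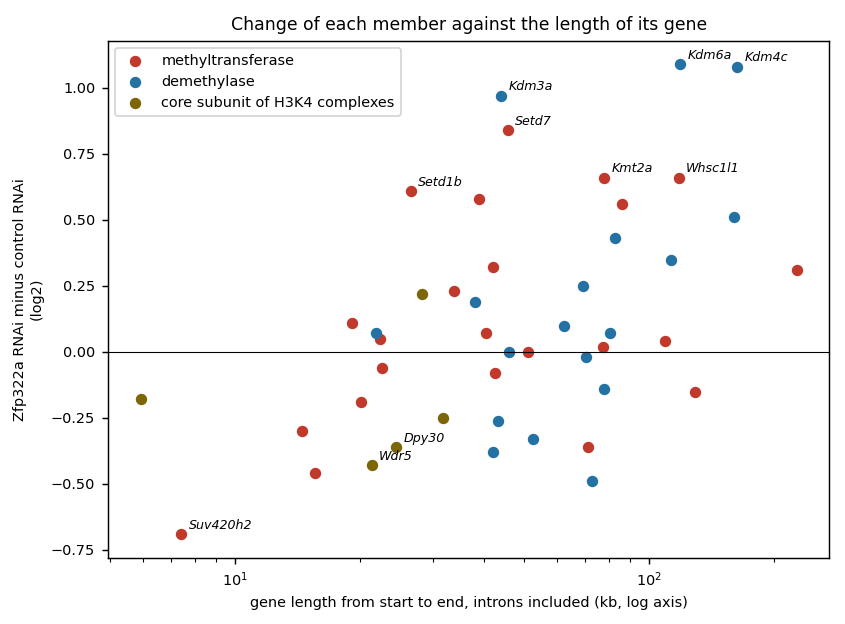
Length of each member's gene in kb (x axis, log scale) against its change (y axis, log2, Zfp322a RNAi minus control RNAi); red marks methyltransferases, blue demethylases and brown core subunits. Kdm6a and Kdm4c lie at the upper right, and Suv420h2 lies at the lower left at 7.42 kb and -0.69.

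Promoter windows from RefSeq (GRCm38.p6, 250 bases before to 50 after a start site) were available for 34 of the 46 members and were searched on both strands for ACGTG (core of the hypoxia response element), CACGTG (E-box, which also holds ACGTG), TGACGTCA (cAMP response element), CCAAT, GAANNTTC (heat shock element), TGATGNAA (C/EBP-ATF element) and ATTTGCAT (octamer). The windows of the largest rise, of Kdm3a and of the largest fall are shown, with matches in capitals. Kdm6a lies at chrX:18162325-18162624 on the + strand, Kdm3a at chr6:71632868-71633167 on the - strand (the first listed of 3 start sites) and Suv420h2 at chr7:4739877-4740176 on the + strand.
Kdm6a: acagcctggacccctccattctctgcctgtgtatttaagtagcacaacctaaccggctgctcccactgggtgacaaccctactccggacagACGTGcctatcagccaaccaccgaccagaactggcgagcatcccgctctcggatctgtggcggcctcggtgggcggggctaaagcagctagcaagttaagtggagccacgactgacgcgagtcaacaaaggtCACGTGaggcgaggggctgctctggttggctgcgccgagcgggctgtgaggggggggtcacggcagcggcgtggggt
Kdm3a: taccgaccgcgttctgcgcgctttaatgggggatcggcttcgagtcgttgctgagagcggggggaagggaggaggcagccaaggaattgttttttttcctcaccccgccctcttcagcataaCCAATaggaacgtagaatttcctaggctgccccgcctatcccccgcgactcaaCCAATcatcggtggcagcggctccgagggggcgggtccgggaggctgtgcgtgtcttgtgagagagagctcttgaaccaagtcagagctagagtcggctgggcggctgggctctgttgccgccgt
Suv420h2: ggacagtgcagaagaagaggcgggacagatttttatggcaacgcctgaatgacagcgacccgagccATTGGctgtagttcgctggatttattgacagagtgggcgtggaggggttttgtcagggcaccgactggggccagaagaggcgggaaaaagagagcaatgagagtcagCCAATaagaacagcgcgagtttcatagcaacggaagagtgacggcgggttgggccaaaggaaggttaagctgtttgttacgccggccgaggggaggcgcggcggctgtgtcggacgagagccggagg
The Kdm6a window held CACGTG and a further ACGTG, and the Kdm3a and Suv420h2 windows each held CCAAT 2 times. The first listed window of Kdm4c held none of the 7 motifs. ACGTG was found in 9 of the 34 member windows (26.5%) and in 19.7% of 27025 promoters, and CCAAT in 13 (38.2%) and 37.9%. The median share of G and C bases was 62.0% in the member windows and 52.7% in all promoters, and the 2 sets were not matched for it. ACGTG lay in 2 of 11 windows of members that rose and in 4 of 7 of those that fell, and CCAAT in 3 of 11 and 4 of 7. CACGTG was in 7.24% of all promoters, TGACGTCA in 1.88%, GAANNTTC in 7.95%, TGATGNAA in 4.06% and ATTTGCAT in 1.75%.

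Genes that work beside the listed members were examined in the same fit. Each is given by its brightest probe set alone, and most of those named have further probe sets that are not given here. Of 22 further enzymes or relatives of lysine methylation, 4 rose (18.2%), 4 fell (18.2%) and 14 did not pass. Over all genes 14% rose and 14.4% fell, so that these counts lay near the share of all genes. Uty was the one of the 22 that rose by over 1.5-fold. Setd6, which methylates a subunit of NF-kappaB, was the one that fell by over 1.5-fold, from 10.13 and 10.17 to 9.57 and 9.41 (-0.66 ± 0.08, adjusted p = 0.00326 with limma). Of 24 complex partners measured of 25 listed, 8 rose (33.3%), 3 fell (12.5%) and 13 did not pass, beside the same shares of all genes. Zfp644, a partner of Ehmt2 and Ehmt1, rose from 9.53 and 9.32 to 10.58 and 10.45 (1.09 ± 0.10, 2.13-fold), and Mllt10, a cofactor of Dot1l, from 9.33 and 9.31 to 10.32 and 10.28 (0.98 ± 0.07, 1.97-fold). Aff4, a scaffold of the super elongation complex (0.95 ± 0.07), Rcor1, a scaffold that binds Kdm1a (0.84 ± 0.09), and Hcfc2 (0.77 ± 0.11) rose as well. The Rcor1 relative Rcor2 fell (-0.45 ± 0.08, adjusted p = 0.0113 with limma), as did Atf7ip, the partner of Setdb1 (-0.35 ± 0.07, adjusted p = 0.0133 with limma).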

How the data were processed

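Total RNA of 2 control RNAi and 2 Zfp322a RNAi samples was hybridised to Affymetrix Mouse Genome 430 2.0 arrays, 1 array per sample. The deposited log2 values were made by the authors with RMA (version not given in the sources used here) and were used as deposited for 45037 probe sets, since the array medians (6.07 to 6.11) were alike. RMA makes the quantiles of arrays alike, so that a shift of all genes would not be seen. The study's methods give the same selection as the labels for shRNA in general and a longer one for the arrays. Groups came from the sample titles.

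Probe sets with 1 gene symbol in the platform annotation (34945) were kept, and each gene was given by the probe set with the highest mean. The groups were compared with limma 3.58.1 under R 4.3.3 (lmFit, then eBayes, with no term but the group, two-sided), with p-values adjusted by Benjamini-Hochberg over all 18193 genes. The procedure was tested on simulated data of 18193 genes, of which 200 were changed, fewer than were called here. It recovered 27% of the 1.5-fold and 72% of the 2-fold changes, with 1 false call. The adjustment is stricter where fewer genes are changed, so that these rates do not carry over to the calls here. A member that did not pass may still have changed, since the limma intervals of such members reached from -0.73 to 0.45. For a single gene, 0.333 is the lowest p that an exact permutation test allows. The named genes are Zfp322a, every member, and those past both thresholds in the other lists (at most 6 per list). Other genes of these lists (Esrrb, Lin28a, Sall4, Pou5f1, Nanog, Sox2, Zfp42, Rcor2, Atf7ip and Cdyl) were named after their values were seen. The members and lists were chosen with earlier results of these data known.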

Additional observations from a re-analysis of the deposited data

How the results depend on the processing

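Leaving out any 1 array left 0 of all genes past the adjusted p with limma, so that these counts say nothing about stability: members called higher went from 14 to 0, members called lower from 8 to 0, writers from 8 higher and 4 lower to 0 and 0, erasers from 6 higher and 2 lower to 0 and 0, and core subunits from 2 lower to 0, while the change of Zfp322a lay between -1.67 and -1.27. The changes of the called members moved by less than 1.5 times in each of these fits. With the 1.5-fold rule and no test, members called were 7 higher and 1 lower, writers 4 and 1, erasers 3 and 0, and core subunits 0 lower. The replicate numbers share only a number, since deviations of same-numbered arrays correlated at 0.04 and the labels pair nothing. With replicate blocks, members called were 9 higher and 3 lower, writers 5 and 2, erasers 4 and 1, and core subunits 0 lower. Of all genes 2643 passed with these blocks, against 2546 higher and 2618 lower without them. With dim genes left out, 16 members were higher and 13 lower. Erasers were then 6 higher and 4 lower, and core subunits 1 and 4. With a variance trend, 16 members were higher and 12 lower, erasers 6 and 4, and core subunits 1 and 3. Shares of all genes with dim genes left out, with a variance trend or with the mean of all probe sets are not given here. With the mean of all probe sets, 11 members were higher and 6 lower, erasers 4 and 2, and writers 7 and 2. Kmt2a, Kmt2c, Jmjd1c, Phf8 and Kdm2a were then no longer called higher, nor Kmt2e and Smyd5 lower. Kdm5a and Suv420h1 passed as higher, and the direction of Kmt2c (-0.09) and Phf8 (-0.05) turned. The causes were not tested. Scaling by array centring or quantiles moved the median of all genes by 0.03 and 0.01. With 2 arrays per group, changes near the standard error of 0.08 (median over genes) cannot be shown.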

Other observations

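Among 32 measured readers of methylated lysines (33 listed), 7 rose and 7 fell with limma, which left 18 not called, with a median change of -0.03. The share was 21.9% each way, beside 14% of all genes that rose and 14.4% that fell. Each reader is given by its brightest probe set alone, and further probe sets are not given here. The rises were led by Dido1, whose PHD finger binds methylated H3K4 (0.87 ± 0.09, adjusted p = 0.00196 with limma), L3mbtl3 (0.72 ± 0.07, adjusted p = 0.00198 with limma) and Brpf3 (0.65 ± 0.07, adjusted p = 0.00209 with limma). Cdyl2, a chromodomain gene, showed the largest fall of this list, from 10.74 and 10.76 on the control arrays to 9.87 and 9.84 on the knock-down arrays (-0.89 ± 0.07, adjusted p = 0.00112 with limma). Its relative Cdyl rose (0.57 ± 0.08, adjusted p = 0.00429 with limma), from 9.79 and 9.69 to 10.35 and 10.26. The difference between the relatives was not tested.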
